A study of Rattus norvegicus with 5 samples.

Results

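Collagen chain genes were taken as all non-control probes whose accession maps to a rat gene symbol of the form Col, a number, the letter a and a number. They were 18 genes of the 15167 genes named on the array, read by 25 of its 30366 probes. The RefSeq table holds 44 such symbols, and the other 26 were not named on the array. Another 12362 probes had no gene name, so a chain may be present under one of them. The 18 chains fell into 7 fibrillar chains, 2 basement membrane (type IV) chains and 9 other chains.

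The series asks what Tmub1, a membrane protein that carries a ubiquitin-like domain, does to gene expression in BRL-3A, a cell line from Buffalo rat liver that the labels call hepatocytes. The 5 groups had 1 one-colour array each. One group received a lentivirus for Tmub1 overexpression, another a lentivirus for Tmub1 knockdown, and each virus had its own negative control virus. The remaining group was normal cells that the labels list with no virus, and the 4 transduced groups were harvested 48 h after transduction. The promoter that drives the transgene, the knockdown sequence, the content of the control viruses and whether the cells were selected were not given in the sources used here. With 1 array per group no difference has a replicate check and no p-value is given.

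Collagens are triple-helical proteins of the extracellular matrix, built from chains that each have their own gene. Fibrillar chains such as those of types I and III form the cables of connective tissue, type IV chains form the mesh of basement membranes, and the remaining types link, decorate or anchor these structures. In liver, hepatic stellate cells and fibroblasts are the best known source of types I and III, and their accumulation marks fibrosis.

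The start-site windows of 3 chains are shown first because the results turn on them: Col5a1, the chain with the largest knockdown difference, Col1a2, a chain of type I, and Col4a1, a chain of type IV whose probes disagreed. Each window holds 250 bases before and 50 after the annotated start, from RefSeq on GRCr8, written 5′ to 3′ on the strand of the gene. They lie at chr3:31606630-31606929, chr4:33518307-33518606 and chr16:84885347-84885646, all on the plus strand. Capitals mark every match on either strand to CCAAT, the motif of the NF-Y factor, to GGGCGG, the motif of Sp1-type factors, and to TATAAA, the TATA box. The 3 motifs did not overlap one another in these windows.
Col5a1: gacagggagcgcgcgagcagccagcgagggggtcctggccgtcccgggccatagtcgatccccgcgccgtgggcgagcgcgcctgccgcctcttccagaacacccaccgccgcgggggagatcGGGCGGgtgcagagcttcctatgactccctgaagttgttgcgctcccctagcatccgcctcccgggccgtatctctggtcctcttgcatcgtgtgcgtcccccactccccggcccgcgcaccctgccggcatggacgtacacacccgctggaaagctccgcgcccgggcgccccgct
Col1a2: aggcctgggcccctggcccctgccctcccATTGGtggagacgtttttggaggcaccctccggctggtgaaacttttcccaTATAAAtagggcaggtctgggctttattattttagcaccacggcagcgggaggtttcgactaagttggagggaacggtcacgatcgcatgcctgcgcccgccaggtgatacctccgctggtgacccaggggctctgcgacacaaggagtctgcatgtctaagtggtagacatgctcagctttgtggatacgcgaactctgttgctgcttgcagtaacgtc
Col4a1: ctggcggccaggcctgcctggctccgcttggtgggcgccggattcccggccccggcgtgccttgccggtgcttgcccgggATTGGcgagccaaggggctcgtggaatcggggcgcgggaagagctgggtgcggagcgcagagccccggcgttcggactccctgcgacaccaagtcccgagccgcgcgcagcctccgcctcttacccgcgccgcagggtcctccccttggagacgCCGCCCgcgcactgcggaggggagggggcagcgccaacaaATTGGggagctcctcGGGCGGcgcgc

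The Col5a1 window held 1 GGGCGG, starting at -127 from the annotated start, and neither of the other motifs. The Col1a2 window held CCAAT on the opposite strand at -221 and TATAAA at -170. Col4a1 held CCAAT on the opposite strand at -170 and 25, and GGGCGG at -16 on the opposite strand and at 40 on its own. The G and C content was 72% for Col5a1, 57.0% for Col1a2 and 75% for Col4a1, beside a median of 51.67% over all windows. The Col4a1 start lies 77 bases from that of Col4a2, its partner in the type IV trimer, which is read from the other strand, and their windows share 176 bases. Col4a2 was not named on the array. Of the 13 chains with a window in the table, 3 held CCAAT, 8 held GGGCGG and 2 held TATAAA, and these motifs were in 37.5%, 33.1% and 14.2% of all 33469 windows. A match describes the letters and is not evidence of a bound factor. The 50 bases after the annotated start open with ATG, the start codon, in Col1a2, and hold ATG near their beginning in Col5a1. An annotated start can thus lie at the coding start, and where transcription begins was not tested.

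The arrays differed in brightness, which bears on dim chains. Their median processed signals ran from 116 in the overexpression negative control through 144 with overexpression, 160 in the knockdown negative control and 329 in normal cells to 356 with knockdown. Between 67.0% and 86.6% of probes were well above background, and no spot was saturated. Tmub1 itself was 3.65-fold lower with knockdown than in its negative control. On the array labelled overexpression it lay at 1.05-fold its negative control, and the labels do not say whether the probe sees the viral transcript. The normal array was scanned on another day than the other 4, so scan day and group cannot be told apart in comparisons with normal cells.

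The labelled cell type was set against its markers. Of 10 hepatocyte markers, 6 were well above background on each transduced array and 8 on the normal array. Tat was above background on none of the 5 arrays, and albumin (Alb) on 2. Of 10 stellate cell and fibroblast markers, 9 or 10 were above background on every array. The log2 of their summed signal, minus the 75th percentile, lay between 5.11 and 6.21 on the transduced arrays and at 5.45 on the normal array. In such a sum the brightest markers weigh most. The same sum for the hepatocyte markers lay between 0.22 and 1.71 over the 5 arrays. Sums of different lists come from different probes and are not compared with each other.

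Levels below are log2 processed signals minus the 75th percentile of the same array, and a chain with several probes was read from the one whose mean over the arrays was highest. Likewise, levels of different chains are not set against each other, because probes differ in how strongly they bind. Of the 18 chains, 14 were well above background on all 5 arrays. Col7a1, the chain of anchoring fibrils, was above background on all arrays except the overexpression negative control. Col23a1, a transmembrane collagen, was above background with knockdown and in normal cells, and the transmembrane Col13a1 and the type IV chain Col4a4 were above background on 0 arrays. Fewer cells that express a chain and less RNA per cell cannot be told apart in these bulk samples.

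**Figure D1:**
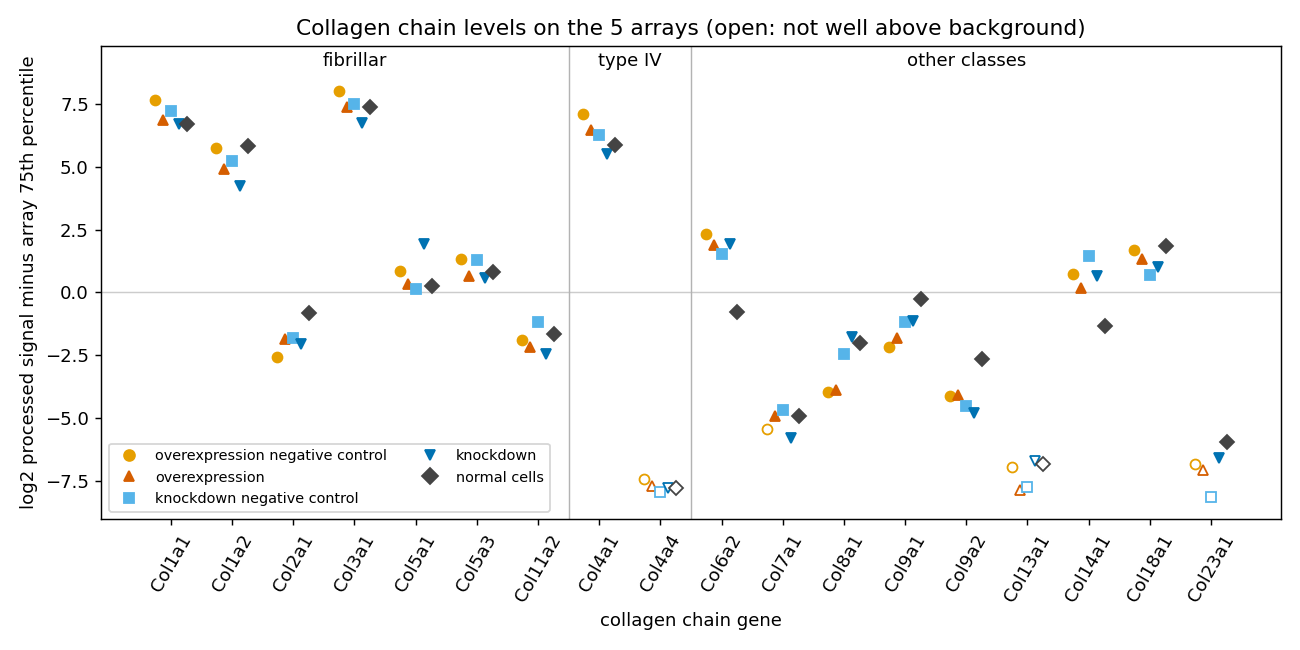
Level of each collagen chain on the 5 arrays, as log2 processed signal minus the array's 75th percentile, with 1 point per array and open points for values not well above background. Col6a2 and Col14a1 were lowest in normal cells, and Col5a1 was highest with knockdown.

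Knockdown cells were set against the knockdown negative control to find chains that differ when Tmub1 mRNA is reduced. Col5a1, the chain of type V collagen that is built into type I fibrils and limits their width, was the single chain past the threshold. Its level was 1.93 with knockdown, 0.12 in the knockdown negative control, 0.32 with overexpression, 0.86 in the overexpression negative control and 0.24 in normal cells. Knockdown lay above all 4 other arrays. The difference from its own control was 1.82 on the log2 scale, or 3.52-fold, with a 95% interval of 1.42 to 2.22 from the scanner's own spot error, which leaves out any difference between cultures. Against the overexpression negative control the difference was 1.08, or 2.11-fold and short of the threshold, and against normal cells it was 1.70, or 3.24-fold.

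A chain was called when the brighter of both values stood well above background and the gap was at least 2.5-fold, a threshold taken from the design text. By this rule 1 of 15 readable chains was higher with knockdown and 0 were lower. Over all named genes 19.2% of 12282 were called, 8.79% higher and 10.5% lower, so the share of chains called did not exceed the background. Quantile normalization and the authors' table each gave 1 chain higher and 1 lower, the lower being Col11a2. Over all genes they called 9.2% and 9.56% higher, and 9.11% and 8.42% lower. The median difference of the 14 chains above background was -0.40, beside -0.26 over all 10684 genes above background on the 5 arrays. The other scalings put the median of all genes between -0.39 and 0.05 and that of the chains between -0.54 and 0.05.

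The chains of type I and III collagen, the main fibril formers, had negative knockdown differences under this scaling. Col1a1 stood at 6.69 with knockdown, 7.21 in its negative control, 6.86 with overexpression, 7.65 in the overexpression negative control and 6.69 in normal cells. The overexpression negative control was highest, and knockdown and normal cells were lowest. Its partner Col1a2 stood at 4.24 with knockdown, 5.23 in the negative control, 4.89 with overexpression, 5.76 in the overexpression negative control and 5.81 in normal cells. Knockdown was lowest for Col1a2 and the overexpression array next lowest. Col3a1 stood at 6.73 with knockdown, 7.50 in the negative control, 7.36 with overexpression, 8.01 in the overexpression negative control and 7.39 in normal cells, with knockdown again lowest.

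The knockdown differences were -0.52 for Col1a1, -0.99 for Col1a2 and -0.78 for Col3a1, none of which reached the threshold. They depended on the scaling. Quantile normalization gave 0.50 for Col1a1 and 0.23 for Col3a1, and the authors' table gave 0.49 and 0.23, so the sign of both turned. Under the 5 scalings Col1a2 stayed negative, from -0.99 to -0.32, and Col5a1 stayed past the threshold, from 1.82 to 2.26. Col1a2, Col3a1 and Col5a1 each have 1 probe, so the probe rules could not move them. Col1a1 has 2 probes, and their mean gave a knockdown difference of -0.88.

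**Figure D2:**
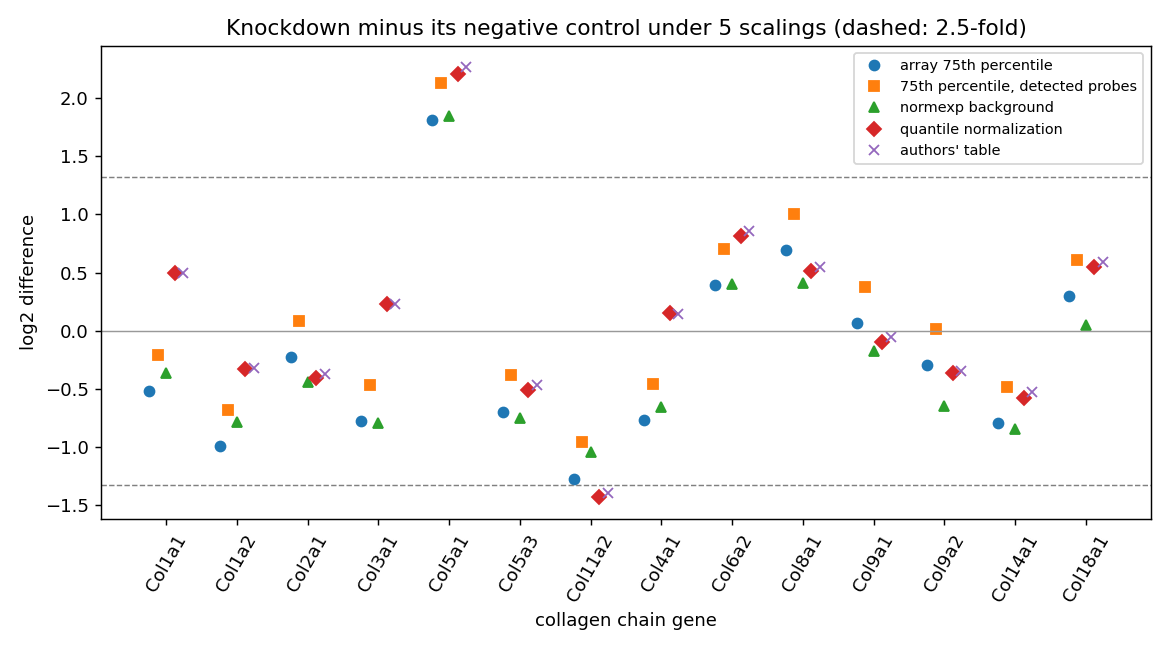
Log2 difference of 14 chains between the knockdown array and its negative control under 5 scalings of the same arrays, with 1 point per scaling and dashed lines at the 2.5-fold threshold. Col5a1 lay above the upper line under every scaling drawn, whereas Col1a1, Col2a1, Col3a1, Col4a1, Col9a1 and Col9a2 lay on both sides of 0. Col11a2 lay below the lower line under quantile normalization and in the authors' table.

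Col4a1, which with Col4a2 forms the most widespread basement membrane trimer, stood at 5.51 with knockdown, 6.27 in the negative control, 6.47 with overexpression, 7.09 in the overexpression negative control and 5.85 in normal cells. Knockdown was lowest and the overexpression negative control highest. The difference from its own control was -0.77, and quantile normalization turned it to 0.15. Against the overexpression negative control the knockdown differences were -1.58 for Col4a1 and -1.52 for Col1a2, both past the threshold. A dim Col4a1 probe, described with the other probes, was called higher in the same comparison, by 3.66 on the log2 scale. Col4a4, a chain of the trimer of specialised basement membranes, lay between -7.95 and -7.44 without rising above background.

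Among the other fibrillar chains, Col11a2, a chain of cartilage-type fibrils, came closest to a lower call. It stood at -2.45 with knockdown, -1.18 in the negative control, -2.17 with overexpression, -1.90 in the overexpression negative control and -1.66 in normal cells. The knockdown difference was -1.27, a 2.41-fold gap. It was called lower under quantile normalization, at -1.43, and in the authors' table, at -1.39. Col5a3, which can join Col5a1 in a trimer, was not called. It stood at 0.58 with knockdown, 1.27 in the negative control, 0.65 with overexpression, 1.33 in the overexpression negative control and 0.82 in normal cells, a knockdown difference of -0.69. Col2a1, the cartilage fibril chain, differed by -0.23.

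Of the chains outside these families, none was called with knockdown. Col7a1 had the largest difference, -1.12. Col14a1, which coats fibril surfaces, differed by -0.79, and Col9a2, a chain of the cartilage-type collagen IX, by -0.29. Col8a1, a short chain of vessel and wound matrix, differed by 0.70, Col6a2 of the beaded microfibrils by 0.39, Col18a1, the basement membrane collagen that releases endostatin, by 0.30, and Col9a1 by 0.06. Of the 14 chains, knockdown lay above all 3 control arrays for 2, Col5a1 and Col8a1, and below all 3 for 7, where 26.3% and 43.2% of genes did so.

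Other reference arrays gave other calls. Against the overexpression negative control, of 14 readable chains 1 was higher with knockdown, Col8a1 at 4.58-fold, and 2 were lower, Col1a2 and Col4a1, where 31.2% of 12021 genes were called, 14.5% higher and 16.7% lower. The Col4a1 call holds for its bright probe, and the dim probe was called higher. Against normal cells, of 16 readable chains 3 were higher with knockdown, Col5a1, Col6a2 and Col14a1, and 2 were lower, Col1a2 and Col9a2, where 30.7% of 13744 genes were called, 11.4% higher and 19.3% lower. Col5a1 was thus called higher against 2 of the 3 control arrays, and Col1a2 lower against 2 of the 3.

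**Figure D3:**
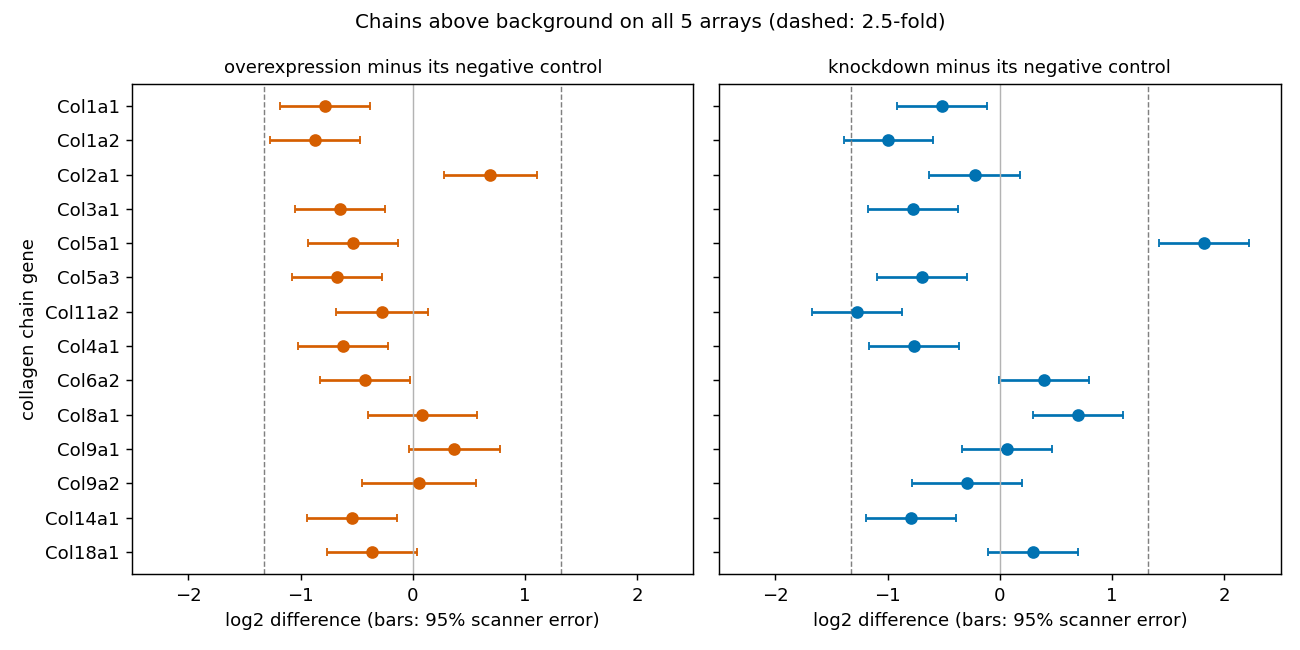
Log2 difference of the 14 chains above background on all arrays from their own negative control for overexpression and for knockdown, with bars for the 95% interval from scanner spot error and dashed lines at the 2.5-fold threshold. Col5a1 with knockdown was the single point past a line.

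The array labelled overexpression was compared with its own negative control. No chain was called: 0 of 15 readable chains were higher and 0 were lower, where 3.14% of 11790 genes were called, 2.02% higher and 1.12% lower. The median difference of the 14 chains was -0.48, beside -0.01 over all genes, with 4 chains positive and 10 negative. The largest differences were -0.87 for Col1a2, -0.78 for Col1a1, 0.69 for Col2a1, -0.68 for Col5a3 and -0.65 for Col3a1. Col4a1 differed by -0.62, which turned to 0.18 as the mean of its probes, and Col5a1 by -0.53. Col7a1 was 1.43-fold higher, its control value being below background. Its 95% scanner interval of -0.31 to 1.34 on the log2 scale included no difference.

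The overexpression negative control held the highest level of the 5 arrays for Col1a1, Col3a1, Col4a1, Col5a3 and Col6a2. Against the knockdown negative control instead, the overexpression differences were -0.34 for Col1a1, -0.34 for Col1a2, -0.15 for Col3a1 and 0.19 for Col4a1, and the median of the 14 chains was -0.25. The overexpression array lay below all 3 control arrays for 4 chains, Col1a2, Col3a1, Col5a3 and Col11a2, and above all 3 for 0, where 14.6% and 14.8% of genes did so. Against the knockdown negative control 0 chains were higher and 1, Col8a1, was lower with overexpression, where 4.23% of 12094 genes were called, 1.92% higher and 2.32% lower. These comparisons share the overexpression array.

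The 2 negative controls were set against each other to give the distance between control arrays. Of 15 readable chains 0 were higher and 1 was lower in the overexpression negative control, where 8.98% of 11802 genes were called, 3.39% higher and 5.59% lower. The chain was Col8a1, which stood at -3.96 in the overexpression negative control, -2.46 in the knockdown negative control, -3.87 with overexpression, -1.76 with knockdown and -2.02 in normal cells. The arrays fell into a low pair, the overexpression virus and its control, and 3 higher arrays. The difference between the controls was -1.50, or 2.83-fold, and it was not called under quantile normalization, normexp or the authors' table. The order of the 5 arrays for Col8a1 was also their order in median processed signal, and the part of brightness in this difference was not tested. The median of the 14 chains was 0.41 between the controls, beside 0.03 over all genes. It was 0.05 under quantile normalization and 0.04 in the authors' table.

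The transduced arrays were set against normal cells to see which chains went with carrying any virus. Col6a2 stood at 1.90 with overexpression, 1.93 with knockdown, 2.32 in the overexpression negative control, 1.54 in the knockdown negative control and -0.77 in normal cells. All 4 transduced arrays were higher, by 2.32 to 3.10, or 4.98- to 8.55-fold. Col14a1 stood at 0.18 with overexpression, 0.67 with knockdown, 0.72 in the overexpression negative control, 1.46 in the knockdown negative control and -1.34 in normal cells. All 4 were again higher, by 1.51 to 2.80, or 2.85- to 6.95-fold. Its other probe was higher by 3.16 to 4.01.

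Col9a2, Col9a1 and Col2a1 lay the other way. Col9a2 stood at -4.08 with overexpression, -4.81 with knockdown, -4.13 in the overexpression negative control, -4.52 in the knockdown negative control and -2.67 in normal cells, so all 4 transduced arrays were lower, by 2.66- to 4.42-fold. Col9a1 stood at -1.82 with overexpression, -1.13 with knockdown, -2.19 in the overexpression negative control, -1.19 in the knockdown negative control and -0.28 in normal cells. It lay below normal cells by 1.80- to 3.76-fold on all 4 arrays, although a dimmer probe, A_43_P11136, was 2.04-fold higher with overexpression than in normal cells. Col2a1 stood at -1.87 with overexpression, -2.05 with knockdown, -2.56 in the overexpression negative control, -1.82 in the knockdown negative control and -0.82 in normal cells, 2.01- to 3.36-fold below normal cells on all 4 arrays. Col11a2 did not share this order, with differences from normal cells of -0.79 to 0.48. In the overexpression negative control 2 chains were called higher and 4 lower than in normal cells, of 15 readable, where 19.8% of 12943 genes were called, 7.9% higher and 11.9% lower. In the knockdown negative control 2 were higher and 1 lower, where 17.3% of 13116 genes were called, 7.46% higher and 9.8% lower. The 2 higher chains were Col6a2 and Col14a1 in both. With overexpression the same 2 were higher and Col8a1, Col9a1 and Col9a2 lower, of 16 readable, where 18% of 13272 genes were called, 7.53% higher and 10.5% lower.

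Some markers of other cell types differed between the same arrays, and others on their lists did not. On the same log2 scale, the summed signal of 3 macrophage and leukocyte markers lay between 1.20 and 1.80 on the transduced arrays. It lay at -2.29 in normal cells, where Ptprc was not above background. Cd74 was higher by 7.11 to 7.71 on the log2 scale and Ptprc by 5.20 to 5.86, the latter against a value below background, whereas Adgre1 differed by -0.15 to 0.63. Pdgfra, a receptor of fibroblasts and stellate cells, and Pecam1, an endothelial marker, were above background on the 4 transduced arrays and not in normal cells. The other endothelial markers Kdr, Cdh5 and Tek differed by -1.92 to 0.10, by -0.52 to 0.24 and by -0.79 to 0.90, and the summed endothelial signal was 0.46 to 2.03 on the transduced arrays and 1.83 in normal cells. Among the stellate cell and fibroblast markers Lrat differed by -1.43 to -0.05, but of the transduced arrays it was above background with knockdown alone. Vim, Des, Acta2 and S100a4 lay on both sides of normal cells. Pdgfrb and Thy1 were higher on all 4 arrays, by 0.40 to 2.47 and by 0.32 to 1.02. The fibril-binding proteoglycans Dcn and Lum were higher by 5.40 to 6.09 and by 4.15 to 5.03. Of the hepatocyte markers above background on all 5 arrays, Tf was higher by 3.19 to 4.28. Serpina1, Fgb, Hnf4a and Ahsg were lower on all 4 transduced arrays. Among the cholangiocyte markers Krt19 differed by -3.10 to -0.45 and Krt7 by -2.13 to 0.17, and Epcam was above background in normal cells alone. Of 6 chondrocyte and bone markers 3 were above background on each transduced array and 4 in normal cells, and Acan, which defines cartilage, was above background on 0. The part of these markers in the chain differences was not tested.

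**Figure D4:**
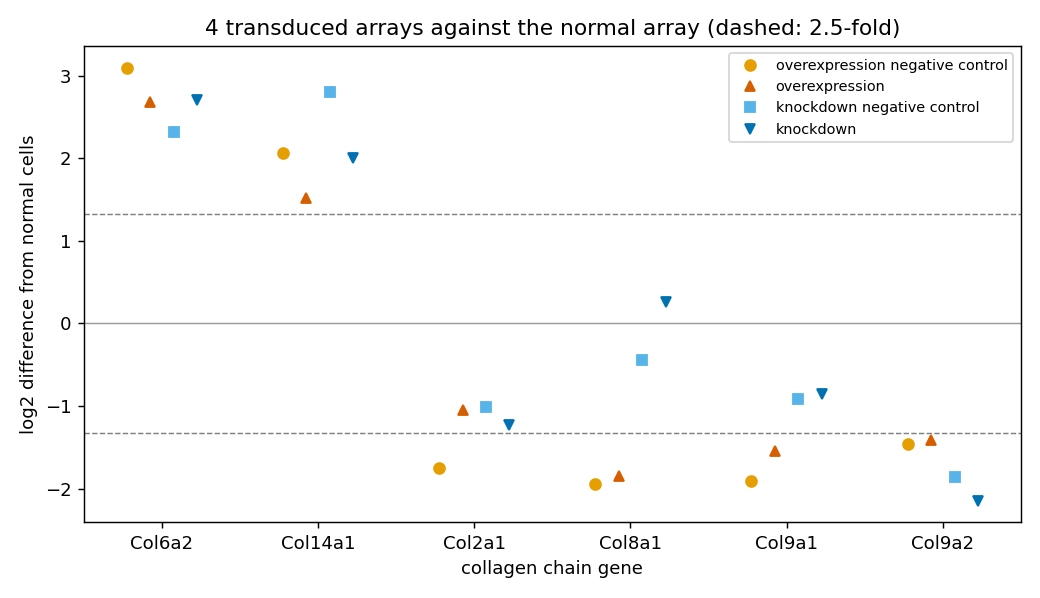
Log2 difference of 6 chains between the 4 transduced arrays and the normal array, with 1 point per transduced array and dashed lines at the 2.5-fold threshold. Col6a2 and Col14a1 were higher on all 4 arrays, and Col9a2 was lower on all 4.

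Probes of 1 gene did not always give the same picture. Of the 18 chains, 6 had several probes. The Col4a1 probe used above, A_64_P149501, and the dim probe A_64_P293606 carry the same accession. The dim probe stood at -3.36 with overexpression, -0.68 with knockdown, -4.34 in the overexpression negative control, -1.99 in the knockdown negative control and -1.48 in normal cells. It was lowest where the bright probe was highest. Its knockdown difference was 1.31, just short of 2.5-fold, against -0.77 for the bright probe, and between the 2 negative controls it differed by -2.35 against 0.82. Its overexpression difference was 0.98 against -0.62. With knockdown it was 12.7-fold higher than in the overexpression negative control, where the bright probe was called lower. The order of the arrays for the dim probe was their order in median processed signal, as for Col8a1, and the part of brightness was not tested.

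Both Col1a1 probes had a negative knockdown difference, -0.52 and -1.23, and the second was called lower against the overexpression negative control, at 3.76-fold. The dimmer Col11a2 probe differed by -0.41 with knockdown, against -1.27 for the probe used. It was below background in the overexpression negative control. There it was 2.55-fold lower than in the knockdown negative control, with a 95% scanner interval of -2.23 to -0.48 on the log2 scale. Against normal cells it was 2.81-fold lower there, with an interval of -2.35 to -0.64. The dimmer Col14a1 probe had a knockdown difference of 0.85 against -0.79. The 2 further Col9a1 probes were each above background on 2 arrays, and the further Col23a1 probe on 0.

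**Figure D5:**
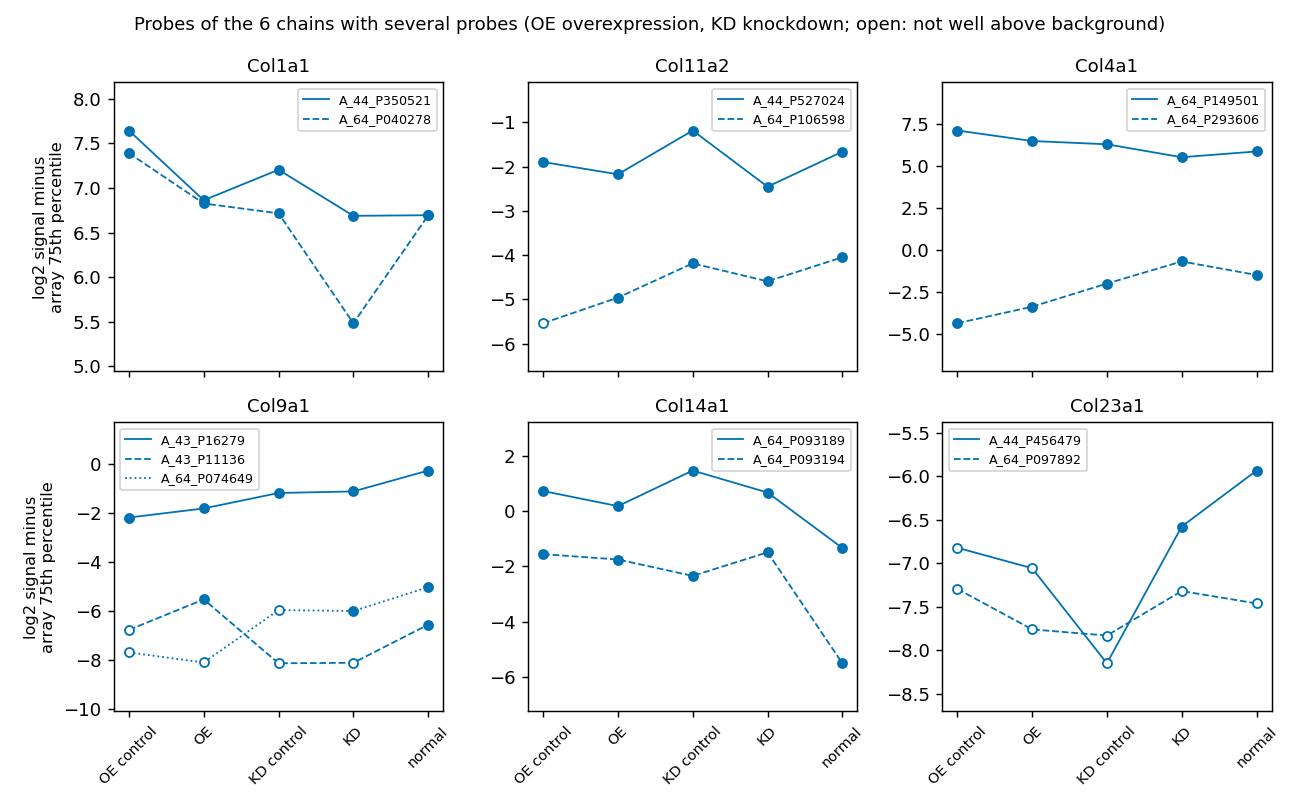
Levels of the probes of the 6 chains with several probes on the 5 arrays, as log2 processed signal minus the array's 75th percentile, with lines joining the values of a probe. The bright and the dim Col4a1 probe ran in opposite directions across the arrays.

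Genes that make, modify, bind or cut collagen were read from lists, with the same rule. Of 24 biosynthesis and processing genes on the array 23 were readable with knockdown, and 7 were called higher and 0 lower, or 30.4% higher beside 8.79% of all genes. P4ha3, a catalytic subunit of the prolyl 4-hydroxylase that stabilises the triple helix, was 52.0-fold higher. Its level was 1.91 with knockdown and -3.79 in the negative control, which was the lowest of the 5 arrays. Knockdown was 25.9-fold above the overexpression negative control and 8.27-fold above normal cells for P4ha3. Against the knockdown negative control, Loxl3, P4ha2 and Loxl2 were 4.74-, 4.30- and 4.25-fold higher. The Loxl genes encode lysyl oxidase-like enzymes that crosslink collagen. The other 3, P4ha1, Sec23a and Loxl4, were 2.60- to 3.52-fold higher. Against the overexpression negative control 7 genes of the list were higher with knockdown and 2, Bmp1 and Pcolce, were lower. Over all genes 14.5% were higher and 16.7% lower in that comparison. Against normal cells 4 were higher, or 17.4% beside 11.4% of all genes, and 0 were lower. With overexpression 0 of 22 readable genes of this list were called.

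The counts of the remaining lists stand beside 8.79% of all genes called higher and 10.5% lower with knockdown, and 2.02% and 1.12% with overexpression. Of 6 readable collagen receptors, Itgb1, the beta 1 integrin shared by the collagen-binding integrins, was 2.63-fold higher with knockdown. Itgb1 with knockdown was also called higher against normal cells, at 3.36-fold. It differed by 0.29 on the log2 scale from the overexpression negative control, short of the threshold. Ddr1, a receptor tyrosine kinase for collagen, was at least 2.82-fold higher with overexpression than in its own control, where it was not above background. It was called lower against the other arrays, by 2.90-fold against the knockdown negative control and 2.81-fold against normal cells. Among the basement membrane partners the laminin chain Lamb2 was 3.10-fold higher with knockdown, and 0 were lower. Of 15 readable fibril-associated and matricellular partners 1 was higher with knockdown, Thbs1 at 3.39-fold, and 2 were lower, Fmod at 7.14-fold and Bgn at 2.55-fold. Fmod and Bgn are proteoglycans that bind collagen fibrils. Of 8 readable collagen-degrading proteases 0 were higher with knockdown and 2 were lower, the membrane-type metalloproteinases Mmp14 at 6.43-fold and Mmp16 at 2.70-fold. Both were also called lower against the overexpression negative control, Mmp14 at 3.17-fold and Mmp16 at 3.79-fold. Neither was called against normal cells, at -0.80 and -0.49. With overexpression Thbs1 was 2.70-fold higher than in its own control, where it was not above background. It differed by -0.43 from the knockdown negative control and by -0.72 from normal cells. With overexpression 0 basement membrane partners and 0 proteases were called.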

How the data were processed

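RNA of BRL-3A cells was measured on 5 one-colour Agilent arrays, 1 per group. Per the file headers, the authors' scanner files hold intensity values from Agilent Feature Extraction 11.0.1.1, corrected for background and for spatial trends and not scaled between arrays. Version 9.1 stands in the submitters' processing notes. The authors' deposited table of log2 values has 30423 entries and the same median, 6.69, in each column; its correlation with the log2 processed signal was 0.990 to 0.999, and the labels do not say how the authors scaled it. Per the labels, 1 µg of RNA was labelled with Cy3.

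Control spots and spots marked as non-uniform, as outliers or by hand were left out, and replicate spots were averaged. The 75th percentile of each array's log2 values was subtracted. Probes were named through accessions in the RefSeq table (GRCr8), and 18004 were named. A dim value below background was raised to the lowest value of its array that was well above, if it lay under that. A raised value makes the difference a bound. Where it passed the brighter value, the chain was not readable. The 95% interval is 1.96 times the scanner software's error and covers spot reading. The number of arrays limits the precision.

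Every chain was accounted for. Values on all arrays were given for Col1a1, Col3a1, Col4a1, called chains, their trimer partners and chains whose probes disagreed, and also for Col2a1, Col6a2, Col8a1, Col9a1, Col9a2 and Col14a1, chosen after their values were seen. From each pathway list up to 4 called genes per direction were named, largest first; P4ha1, Sec23a, Loxl4, Bmp1 and Pcolce were added after their values were seen. One member of the basement membrane list is not reported here. The members and lists were chosen with earlier results of these data known. Alternatives were quantile normalization, the 75th percentile over probes detected on every array, normexp (offset 50) on the median spot signal (limma 3.58.1, R 4.3.3), the authors' table, other probe rules, a 2-fold threshold and other reference arrays. The calling step was run on simulated arrays with known differences put into genes above background. The rule for values below background was not tested there.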

Additional observations from a re-analysis of the deposited data

How the results depend on the processing

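Of 78 counts of chains under an alternative, 62 stayed within 1.5 times the count reported and 16 did not, and no called chain changed sign when read from the probe used. For counts of pathway list genes, 110 stayed within it and 30 did not. Called pathway genes changed sign in 5 instances: with overexpression, Ddr1 went to -1.53 against the knockdown negative control and -1.49 against normal cells, and Thbs1 to -0.43 and -0.72, and with knockdown Loxl4 went to -0.10 under normexp. Against normal cells in place of their own control, 3 chains were higher (Col5a1, Col6a2, Col14a1) and 2 lower (Col1a2, Col9a2) with knockdown, and 2 higher and 3 lower with overexpression. Against the other negative control, 2 chains were lower with knockdown (Col1a2 and Col4a1, whose dim probe was called higher) and 1 with overexpression (Col8a1). With a 2-fold threshold, 2 were lower with knockdown (Col7a1, Col11a2), where 18.8% of genes were. In the knockdown negative control 3 were lower than in normal cells, where 17.2% of genes were. Quantile normalization and the authors' table each gave 1 lower chain with knockdown, where 9.11% and 8.42% of genes were lower. Both gave 0 lower between the negative controls, where 4.31% and 3.97% of genes were. Normexp gave 0 lower between the negative controls and 0 in the knockdown negative control against normal cells, where 1.59% of genes were lower in each. It gave 1 in the overexpression negative control against normal cells, where 1.19% of genes were. The 75th percentile over detected probes gave 2 lower in the knockdown negative control against normal cells, where 13.8% of genes were. The cause was not tested. No paired analysis was possible because the groups share a single replicate number, with 1 array each, and no replicate could be left out. Chains near background, Col4a4, Col7a1, Col13a1 and Col23a1, are limited by signal over background.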
